A study of Mus musculus with 15 samples.

Results

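*Kazald1*, *Sel1l3*, *Sgpp2* and *Arhgap20* are 4 genes whose signal in XY gonads lacking both *Amh* and *Inhbb* lay far below that of control testes and closer to that of control ovaries. They were picked by name, because of their levels in these arrays, out of 30098 genes that were measured by a transcript cluster with a single gene symbol. Each of the 4 had 1 such cluster. RNA came from whole mouse gonads at embryonic day 15.5 that had been freed of the mesonephros, and it was measured on Affymetrix Clariom D arrays. There were 3 groups of 5 arrays on a C57BL/6 background: dKO XY gonads (Amh-/-; Inhbb-/-), control XY testes and control XX ovaries. Both control groups were wild type for both genes and, per the labels, were litter mates from timed Amh+/-; Inhbb+/- crosses. The knockouts were germline deletions, so that both factors were missing from every cell and at every stage before collection.

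Sertoli cells, the supporting cells of the fetal testis, secrete anti-Müllerian hormone (AMH) and activin B, which are ligands of the TGF-beta family and signal through SMAD proteins. The 4 genes belong to no common pathway. KAZALD1 is a secreted protein that joins an insulin-like growth factor binding domain to a Kazal-type domain, and it is known from bone formation. SGPP2 is a phosphatase of the endoplasmic reticulum that turns sphingosine-1-phosphate, a signalling lipid, back into sphingosine. ARHGAP20 is a GTPase-activating protein, which switches small GTPases off, and is itself bound by the GTPase Rap1. SEL1L3 is a membrane protein with Sel1-type repeats whose function is little known.

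The promoters are shown because the genes shared a direction between the groups. The set of RefSeq promoter entries used here (GRCm38.p6) held 4 start sites for 3 of the 4 genes (*Kazald1*, *Sgpp2* and *Arhgap20*). It held no entry for *Sel1l3*, which does not mean that this gene has no known start site. Both sites of *Kazald1* are included, and the 250 bases before each site are printed 5′ to 3′ with motif matches in capitals.
Kazald1 first start, chr19:45074991-45075240, + strand: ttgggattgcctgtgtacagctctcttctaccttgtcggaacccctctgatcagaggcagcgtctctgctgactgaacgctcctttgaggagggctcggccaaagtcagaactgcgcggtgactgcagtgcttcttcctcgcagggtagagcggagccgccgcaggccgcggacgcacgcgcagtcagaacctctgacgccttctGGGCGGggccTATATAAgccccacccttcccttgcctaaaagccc
Kazald1 second start, chr19:45075837-45076086, + strand: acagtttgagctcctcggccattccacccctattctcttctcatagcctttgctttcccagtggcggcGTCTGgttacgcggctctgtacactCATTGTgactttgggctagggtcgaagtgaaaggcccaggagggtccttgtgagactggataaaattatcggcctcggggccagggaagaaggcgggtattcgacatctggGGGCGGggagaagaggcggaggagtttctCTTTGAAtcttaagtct
Sgpp2, chr1:78310096-78310345, + strand: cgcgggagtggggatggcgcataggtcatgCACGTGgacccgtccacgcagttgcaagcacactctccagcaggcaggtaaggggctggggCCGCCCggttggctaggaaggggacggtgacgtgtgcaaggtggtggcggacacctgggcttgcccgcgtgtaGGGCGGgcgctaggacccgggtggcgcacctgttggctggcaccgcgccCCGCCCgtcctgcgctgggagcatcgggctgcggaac
Arhgap20, chr9:51765101-51765350, + strand: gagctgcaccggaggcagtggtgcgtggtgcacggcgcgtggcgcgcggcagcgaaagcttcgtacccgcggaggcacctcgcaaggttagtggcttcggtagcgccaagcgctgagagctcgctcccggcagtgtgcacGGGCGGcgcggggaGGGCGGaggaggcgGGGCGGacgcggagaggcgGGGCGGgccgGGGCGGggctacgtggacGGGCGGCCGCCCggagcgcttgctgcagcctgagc

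The GC box (GGGCGG) was the 1 motif of the 12 searched that was found in all 4 windows, and it stood in 32.7% of all 32851 promoter entries of the same length. Positions are counted back from the start site at 0 to the leftmost base of the match, and both strands were searched. The first *Kazald1* promoter held a TATA-type match (TATANAA, 10.4% of entries) at -35 and a GC box at -45. The second had a GC box at -46, the SMAD-type motif CAGAC (42.2% of entries) at -182, the SOX-type motif ACAATG (10.7%) at -157 and the TCF/LEF-type motif TTCAAAG (4.46%) at -17. *Sgpp2* had 3 GC boxes, at -159, -86 and -37, and an E-box (CACGTG, 6.02% of entries) at -220. *Arhgap20* had 7 GC boxes, all between -110 and -29, and 3 or more GC boxes stood in 8.47% of entries. The GC content was 76% in *Arhgap20*, 70.8% in *Sgpp2* and 61.2% and 54.4% at the first and second start of *Kazald1*, against a median of 52.4% over all entries. The other motifs had no match in any of the 4 windows. These were a second motif bound by SOX factors, ACAAAG, present in 16.5% of entries, and the motif of the nuclear receptor NR5A1, AAGGTCA, present in 4.08%. The motif of zinc finger factors of the GATA family, AGATAA, was present in 9.99% of entries. The palindrome bound by SMAD proteins, GGCGCC, was present in 9.59%, and the forkhead motif, GTAAACA, in 3.17%. The DMRT1 motif, ACATTGT, which holds ACAATG when read on the other strand, was present in 2.56%. A match is a run of letters and not a binding site, and an absent match says only that these letters were not in the window.

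The arrays were alike in quality. The medians of the 15 arrays over 65956 tested clusters lay between 5.17 and 5.33 on the deposited log2 scale, and the difference between positive and negative control probe sets was 4.31 to 5.21. *Amh* averaged 4.51 ± 0.15 in dKO XY against 11.47 ± 0.49 in control XY (SD, n = 5 each). *Inhbb* averaged 9.27 ± 0.10 against 10.53 ± 0.12, and both differed in the direction of the genotype labels. The *Inhbb* signal left in dKO XY was near that of the wild-type ovaries (9.18 ± 0.10) and above the median of the negative control probe sets (6.24). What this remaining signal measures was not tested. The marker lists for the labelled organs were chosen with earlier results of these data known, so they are no independent check of the labels. Of these markers, 14 of 16 Sertoli cell genes were lower in the ovaries than in the control testes. Of the granulosa cell genes 8 of 9 were higher, with *Fstl4* lower. Over all clusters 3.22% were called lower in the ovaries and 2.54% higher. The deposited scale passes the 16 log2 units that a 16-bit scanner can give, so it is stretched by an unknown amount. A difference of 1 unit is called 2-fold here by convention only.

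*Kazald1* was within the range of the ovaries in dKO XY. Its log2 signal was 9.04, 8.14, 8.53, 8.68 and 8.44 on the 5 control XY arrays, 6.22, 6.35, 6.13, 6.11 and 6.39 on the dKO XY arrays and 5.72, 6.50, 6.42, 6.22 and 5.95 on the control XX arrays. All 5 dKO XY arrays were inside the range of the ovaries and 1.75 or more below the lowest testis. The means were 8.57 ± 0.33 for the testes, 6.24 ± 0.13 for dKO XY and 6.16 ± 0.33 for the ovaries (SD, n = 5 each). The log2 difference of dKO XY from control XY was -2.33 ± 0.16 (SE), whereas its difference from control XX was 0.08 ± 0.16. The lower end of this scale was set against 5222 probe sets named as negative controls, which had a median of 6.24. The array medians over all tested clusters (5.17 to 5.33) and the median of 23 antigenomic background probe sets (3.61) were lower still. The *Kazald1* mean exceeded 50.5% of these probe sets in dKO XY and 49.7% in control XX, and whether a signal at this height is above background cannot be told from these probe sets.

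*Sgpp2* had a similar profile. The control XY arrays gave 8.41, 7.37, 7.99, 7.92 and 8.37, the dKO XY arrays 5.71, 6.07, 6.23, 6.17 and 5.97, and the control XX arrays 5.70, 5.79, 5.94, 5.99 and 5.29. Testes and dKO XY gonads did not overlap, with 1.15 between the lowest testis and the highest dKO XY gonad. Against the ovaries, 2 of 5 dKO XY arrays lay within their range and 3 above it. The group means were 8.01 ± 0.42, 6.03 ± 0.20 and 5.74 ± 0.28. The log2 difference from control XY was -1.98 ± 0.18 and that from control XX was 0.29 ± 0.18. As for *Kazald1*, the means of dKO XY and control XX were in the middle of the negative control probe sets, above 46.5% and 40.3% of them.

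*Sel1l3* stayed clear of the ovary level, although its difference between dKO XY and control XY was the most negative of the 4 genes. The control testes gave 9.91, 9.46, 9.59, 10.02 and 9.85, the dKO XY gonads 7.28, 7.29, 6.98, 7.56 and 7.80, and the ovaries 5.69, 5.42, 5.78, 5.47 and 5.67. The 3 groups formed 3 separate bands, with 1.66 between the lowest testis and the highest dKO XY gonad and 1.21 between the lowest dKO XY gonad and the highest ovary. The dKO XY mean was 7.38 ± 0.31, with testes at 9.77 ± 0.23 and ovaries at 5.60 ± 0.15. The log2 differences were -2.38 ± 0.14 from control XY and 1.78 ± 0.14 from control XX. The mean exceeded 95.1% of the negative control probe sets in the testis, 73.6% in dKO XY and 37.6% in the ovary.

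*Arhgap20* was likewise between the controls. Its signals were 12.57, 11.88, 12.21, 12.41 and 12.45 on the testis arrays, 10.42, 10.63, 9.85, 10.27 and 10.55 on the dKO XY arrays, and 9.43, 9.36, 9.45, 8.97 and 9.29 on the ovary arrays. No dKO XY array fell within the range of either control, and the gap to the nearest ovary was 0.40. The means were 12.30 ± 0.27, 10.35 ± 0.31 and 9.30 ± 0.20. The log2 differences of dKO XY were -1.96 ± 0.15 from control XY and 1.05 ± 0.15 from control XX. For *Arhgap20* as for *Sel1l3* every dKO XY array was above every ovary, which was so for 6.4% of all clusters. In all groups this cluster was above at least 94.0% of the negative control probe sets, so the remaining signal in the ovary was well clear of background.

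**Figure D1:**
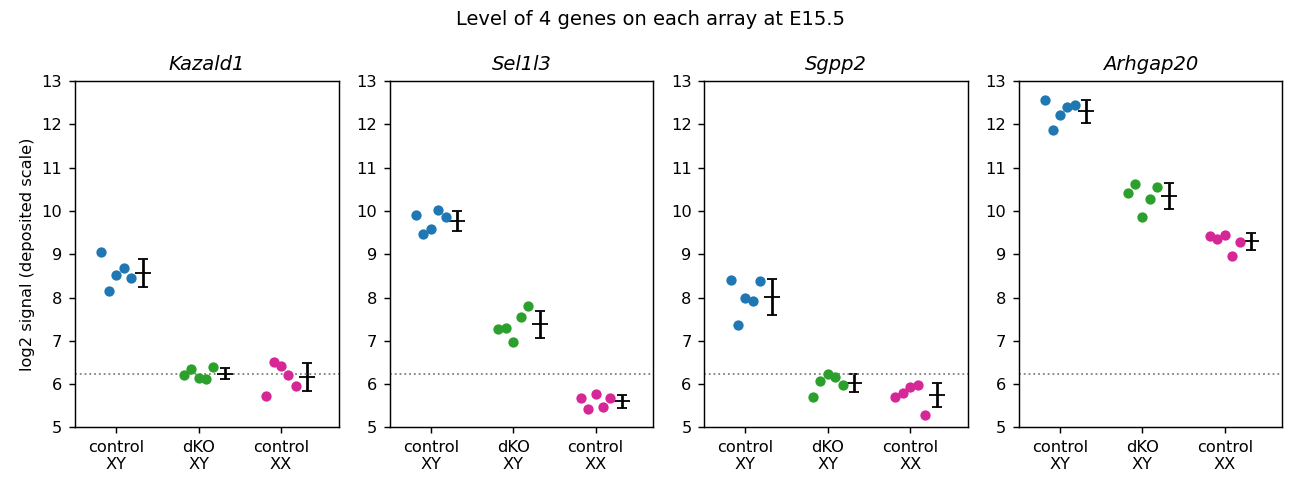
Log2 signal (deposited scale, vertical axis) of each gene on every array, with mean and SD (n = 5) beside each group; the dotted line is the median of the negative control probe sets (6.24). dKO XY overlaps control XX in *Kazald1* and *Sgpp2* and lies between the controls, without overlap, in *Sel1l3* and *Arhgap20*.

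For all 4 genes every dKO XY array was below every control XY array. This was so for 4.59% of all tested clusters, and 1.62% of clusters were called lower in dKO XY. Calls required a difference of 1 or more and a limma p, adjusted over the 65956 clusters, below 0.05. Because the genes were chosen on this contrast, no test is given for them and nothing is read from these shares. The arrays measured whole gonads, and fewer cells that express a gene cannot be told apart from less RNA per cell.

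The distance from testis to ovary sets the same values on a common scale. dKO XY covered 96.8% of the difference between the control means for *Kazald1*, 87.3% for *Sgpp2*, 65.2% for *Arhgap20* and 57.2% for *Sel1l3*. Single dKO XY arrays covered 90.6% to 102% for *Kazald1*, 78.6% to 101% for *Sgpp2*, 55.6% to 81.6% for *Arhgap20* and 47.1% to 66.9% for *Sel1l3*. The range of *Kazald1* thus lay above those of *Arhgap20* and *Sel1l3*, while *Sgpp2* overlapped *Kazald1* and *Arhgap20*, and *Arhgap20* overlapped *Sel1l3*. By these values, on which the genes were chosen, "near ovary level" describes *Kazald1* and *Sgpp2*, whose dKO XY arrays reached the ovary range, and not the other pair. The ovary means of *Kazald1*, *Sgpp2* and *Sel1l3* lay among the negative control probe sets, so the percentages of these 3 genes are approximate.

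How much of the distance other testis-higher transcripts covered depended on which were counted. Of 751 established genes called lower in ovary than in control testis (3.22% of all clusters, named or not, were), dKO XY covered a median of 33.5% (quartiles 16.9% and 52.7%). Of these genes, 130 were also called lower in dKO XY, with a median of 63.4% and quartiles of 49.5% and 82.5%. Among the 130, 116 covered less of the distance than *Kazald1*, 103 less than *Sgpp2*, 66 less than *Arhgap20* and 52 less than *Sel1l3*. *Arhgap20* and *Sel1l3* were close to the middle of that set of named genes. Called differences between dKO XY and control XX remained for 53 of the 130, all of them with dKO XY higher. Over all clusters, most of them outside the set of established genes, more of the distance was covered. The median was 50.8% (quartiles 29.3% and 75.2%) over 2127 testis-higher clusters and 83.7% (65.9% and 97.2%) over the 694 of them called lower in dKO XY, of which 575 were not called against the ovary. Of the 694, 512 covered less than *Kazald1*, 387 less than *Sgpp2*, 167 less than *Arhgap20* and 120 less than *Sel1l3*, so that the last pair lay below the lower quartile (65.9%) there.

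**Figure D2:**
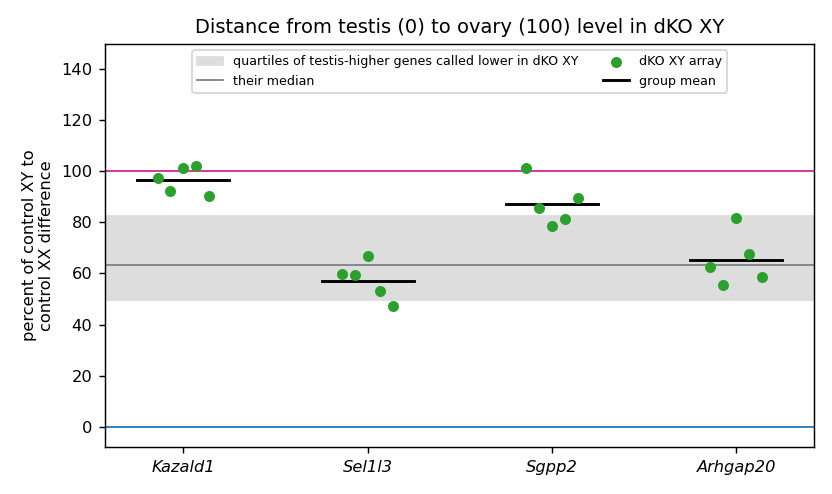
Percent of the control XY to control XX difference covered by dKO XY (vertical axis, 0 is the mean of control XY and 100 that of control XX). Points are dKO XY arrays and black bars group means. The grey band spans 49.5% to 82.5%, the quartiles of 130 testis-higher genes called lower in dKO XY. *Kazald1* (96.8%) lies above it. The place of the band depends in part on the minimum fall required for this call.

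Single arrays recurred at the ends of the groups. Control XY replicate 2 was the lowest testis for all 4 genes, and control XY replicate 1 the highest for 3 of them. Without control XY replicate 2 the differences between dKO XY and control XY were -2.43 for *Kazald1*, -2.46 for *Sel1l3*, -2.14 for *Sgpp2* and -2.06 for *Arhgap20*. That array was the middle one of the 5 testes in the mean of the 16 Sertoli cell markers (9.47, range 9.38 to 9.69). It had the lowest mean of the 4 measured fetal Leydig cell markers (16.03, range 16.03 to 16.59). In the immune (6.26) and mesonephros (5.05) lists it was likewise the lowest testis, and in the granulosa cell list (6.49) the highest. Among dKO XY gonads, replicate 3 was lowest for *Sel1l3* and *Arhgap20* but highest for *Sgpp2*. Its mean over 7 interstitial markers was 10.45, against 11.02 to 11.13 on the other dKO XY arrays. It was also the lowest of its group in the Sertoli cell (8.66), fetal Leydig cell (15.67), germ cell (12.22), endothelial (10.38) and immune (6.27) lists and the highest in the erythroid list (8.91). Without it dKO XY minus control XY was -2.30 for *Kazald1*, -2.28 for *Sel1l3*, -2.03 for *Sgpp2* and -1.83 for *Arhgap20*. The part of these arrays' cell make-up in the 4 genes was not tested.

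Markers of several cell types moved in the same comparison. The mean of the Sertoli cell markers ranged from 9.38 to 9.69 in the testes, 8.66 to 9.04 in dKO XY and 5.89 to 6.24 in the ovaries. Against control XY, 5 of the 16 were lower in dKO XY and 1, *Cldn11*, was higher. Over all clusters 1.62% were called lower in this comparison and 0.567% higher. For the 7 measured interstitial markers the ranges were 12.02 to 12.20, 10.45 to 11.13 and 9.79 to 10.16, with 4 lower and 0 higher. The 9 granulosa cell markers ran from 6.33 to 6.49, 7.59 to 7.95 and 8.76 to 8.90, and 6 were higher in dKO XY. Fetal Leydig cell, endothelial, immune, erythroid and mesonephros markers had 0 calls between dKO XY and control XY with limma. At an unadjusted p below 0.05, which 22% of all clusters met, there were 2 of 4 Leydig cell and 3 of 4 endothelial genes, and 0 immune, erythroid or mesonephros genes. Of 5 germ cell markers 1 was higher and 1 lower. The mean of the 2 measured mesonephros markers was 4.90 to 5.64 over the 15 arrays. How far these shifts account for the 4 genes was not tested.

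The genes with the most similar profiles were found by the root mean square (RMS) difference between profiles, each centred on its own mean, over the 15 arrays and among 18780 genes. *Kazald1* and *Sgpp2* were among each other's closest 5 (RMS difference 0.29 log2 units), and the pair furthest apart was *Sel1l3* and *Sgpp2* (0.87). Beside *Sgpp2*, *Kazald1* was most like *Adcy2* (0.33), an adenylyl cyclase, *Spock2* (0.34), *Wnt5a* (0.34), a secreted WNT ligand, and *Svep1* (0.35), an extracellular matrix protein. *Sgpp2* was most like *Spock2* (0.27), then *Kazald1*, *Fam155a* (0.34), *Adcy2* (0.34) and *Dnmt3l* (0.37), a cofactor of DNA methylation in germ cells. For *Arhgap20* the closest were *Ctsl* (0.24), which encodes the lysosomal protease cathepsin L, *Fshr* (0.25), the receptor for follicle-stimulating hormone on Sertoli cells, *Wnt5a* (0.28), *Efna5* (0.34) and *Khdc1c* (0.37). The nearest profile of *Sel1l3* lay further away than the nearest of each other gene. Its nearest were *Efna5* (0.35), an ephrin ligand, *Sostdc1* (0.39), a secreted antagonist of BMP and WNT, *Cxcl12* (0.45), a chemokine, *Stox2* (0.47) and *Adamts5* (0.49), a matrix protease, and in these 5 genes dKO XY covered 37.7% to 51.2% of the distance to the ovary, beside 57.2% in *Sel1l3*. The 16 genes that fill these places, *Kazald1* and *Sgpp2* included, were selected for this likeness, and *Fshr* and *Wnt5a* among them are also on the marker lists for Sertoli and interstitial cells.

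**Figure D3:**
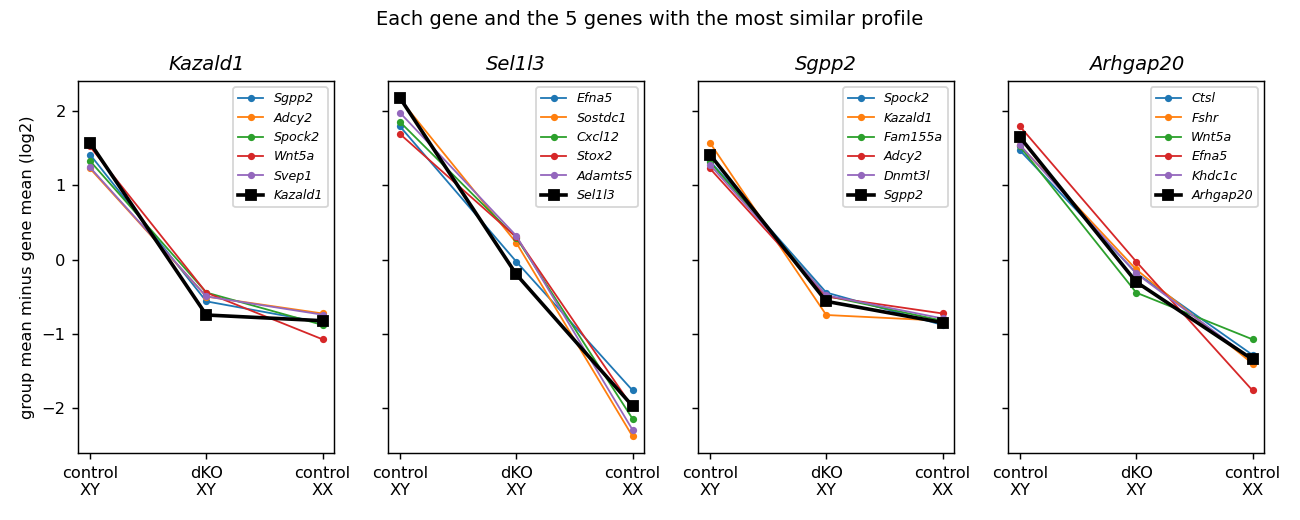
Group means minus the mean over 15 arrays (log2, vertical axis) for each gene (black squares) and its 5 most similar genes. The curves of *Kazald1* and *Sgpp2* are nearly flat from dKO XY to control XX, and those of *Sel1l3* and *Arhgap20* continue downward.

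Related genes, which had no part in the choice of the 4, were tested in the same limma fit. Their lists were chosen with earlier results of these data known, so these tests are not independent of the data. In 6 lists of paralogs and pathway partners, 137 of 142 genes were measured. Of these, 4 were called higher and 2 lower in dKO XY against control XY, which is 4.38% of the 137, beside 2.19% of all tested clusters (0.567% higher and 1.62% lower). Between the controls, 8 were higher and 9 lower in the ovary, or 12.4%, beside 5.76% of all clusters (2.54% higher and 3.22% lower). Against the ovary, 9 were higher and 5 lower in dKO XY, or 10.2%, beside 2.5% of all clusters (1.22% higher and 1.28% lower). The 3 contrasts share arrays and are not independent of one another. Of all tested clusters 33142 have no gene symbol, so the shares of all clusters, here and below, are not shares of named genes.

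*Sgpp1*, the paralog of *Sgpp2*, differed by no more than the spread between arrays. It measured 8.25 ± 0.12 in the testis, 8.38 ± 0.14 in dKO XY and 8.31 ± 0.20 in the ovary, and dKO XY minus control XY was 0.13 ± 0.10 (limma adjusted p = 0.51). Sphingosine-1-phosphate is made by sphingosine kinases and removed either by these phosphatases or by the lyase encoded by *Sgpl1*. *Sgpl1* was higher in the ovary, at 12.72 ± 0.14, than in the testis (limma adjusted p = 7.2e-09). In dKO XY it was 11.61 ± 0.31, without overlap with the 10.72 ± 0.16 of control XY, a difference of 0.89 ± 0.13 (limma adjusted p = 0.00033) that is under the 2-fold threshold. All dKO XY arrays stood above all control XY arrays in 4.26% of all clusters. The kinases *Sphk1* (-0.11) and *Sphk2* (0.13) were not called.

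Of 38 measured sphingolipid genes 1 was higher and 0 lower in dKO XY, beside 0.567% and 1.62% of all clusters. Their median difference was 0.06, beside 0.01 over all clusters. The called gene was *Acer3*, a ceramidase that releases sphingosine, which rose from 8.14 ± 0.12 to 9.26 ± 0.35 (1.12 ± 0.15, limma adjusted p = 0.0002) and stood at 10.74 ± 0.27 in control XX. Between the controls, *Acer3* (2.60), *Sgpl1* (2.00) and the ceramide synthase gene *Cers4* (1.07) were higher in the ovary and *Cers6* (-1.85), another ceramide synthase, was lower. The call of *Cers4* was lost without control XY replicate 2 (0.99). dKO XY differed from the ovary by 1.42 in *Cers6*, -1.11 in *Sgpl1* and -1.48 in *Acer3*. *Plpp3*, a phosphatase that acts on lipid phosphates at the cell surface and was named after its values were seen, had the lowest difference on the list (-0.89, adjusted p = 0.00031), under the threshold. *Sptlc2*, a subunit of the first enzyme of sphingolipid synthesis, and *Asah1*, acid ceramidase, gave 0.21 and -0.05.

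Of the 32 measured other genes of the ARHGAP family, 0 were called lower in dKO XY (1.62% of all clusters were) and 1 was called higher. With no fold threshold, for which no share of all clusters was taken, 6 had lower and 5 higher signal at an adjusted p below 0.05. One of the lower was *Arhgap24*, named after its values were seen, with 7.83 in the testis, 7.09 in dKO XY and 6.93 in the ovary (-0.74, limma adjusted p = 8.6e-05). The gene called higher was *Arhgap29*, which also acts downstream of Rap1. Its signal was 10.92 to 11.21 in the testes, 12.42 to 13.10 in dKO XY and 13.94 to 14.26 in the ovaries, again in 3 separate bands but in the reverse order of *Arhgap20*. It rose by 1.69 ± 0.13 in dKO XY (limma adjusted p = 7.9e-07). Between the controls, *Arhgap29* (2.97) and *Arhgap12* (1.42) were higher in the ovary and *Arhgap6* (-1.57) was lower. Against the ovary, dKO XY was higher in *Arhgap6* (1.03, but 0.98 without control XX replicate 1) and lower in *Arhgap29* (-1.29). *Arhgap5* and *Arhgap11a*, which had the highest mean signal of the others, differed by 0.24 and -0.30 between dKO XY and control XY.

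Few relatives of *Kazald1* were called between dKO XY and control XY. Of 22 insulin-like growth factor binding proteins and relatives 1 was higher in dKO XY and 0 lower, beside 0.567% and 1.62% of all clusters. A list this short cannot tell 1 call from these shares. *Igfbp2*, which encodes a secreted binding protein, rose from 7.95 ± 0.29 to 9.30 ± 0.19 (1.35 ± 0.12, limma adjusted p = 4.4e-06), with 10.07 ± 0.09 in control XX. In the ovary *Igfbp2* was higher (2.13), while *Igfbp3* (-2.42), *Igfbp7* (-4.04), the secreted protease gene *Htra3* (-2.30) and *Ccn1* (-2.22), which encodes a matrix-associated protein, were lower than in the testis. dKO XY remained above the ovary in all 4 of these, by 1.52, 3.40, 1.32 and 1.93. *Igfbp3* and *Htra3* differed from control XY by -0.89 and -0.97, just under the threshold, and *Htra3* passed it without dKO XY replicate 2 (-1.03), control XY replicate 2 (-1.10) or control XY replicate 4 (-1.03). *Igfbp5* and *Igf2* gave 0.16 and 0.19.

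Of 22 other genes for proteins with Kazal-type domains, 1 was higher in dKO XY and 2 lower, beside 0.567% and 1.62% of all clusters. *Spock2*, a secreted proteoglycan gene that is also among the most similar profiles above, was measured at 8.59 to 9.33 in the testes, 7.06 to 7.23 in dKO XY and 6.42 to 6.87 in the ovaries. It fell by 1.78 ± 0.12 (limma adjusted p = 2.1e-07) and was 0.44 above the ovary (adjusted p = 0.019), under the threshold. *Smoc2*, a matricellular protein gene, fell by 1.01 ± 0.16 (adjusted p = 0.00056) and was still 2.31 higher than in the ovary. That call was lost after a second quantile normalization (-0.98), with array medians centred (-0.99), with array weights (-0.95) and on leaving out dKO XY replicate 1 (-0.97), dKO XY replicate 3 (-0.90) or replicate 1 (-0.99), 3 (-0.97) or 4 (-0.96) of control XY. *Fst*, which encodes the activin-binding protein follistatin, rose by 2.27 ± 0.21 (adjusted p = 3.9e-06) to 8.25 ± 0.56, below the 11.43 ± 0.28 of control XX. Between the controls *Sparcl1* (1.31) was also higher in the ovary, and *Fstl4* (-1.45) was lower, as were *Spock2* (-2.22) and *Smoc2* (-3.31). *Smoc1* was 1.33 higher in dKO XY than in the ovary, and *Fstl4* 1.74 higher. *Fst* and *Fstl4* are also on the granulosa cell marker list. *Sparc* (-0.05) and *Fstl1* (-0.97) had the highest signals of the genes not called in any contrast.

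The relatives of *Sel1l3* had differences under 2-fold. Its paralog *Sel1l*, an adaptor of protein degradation at the endoplasmic reticulum, was 12.17 ± 0.09 in the testis, 11.83 ± 0.05 in dKO XY and 11.71 ± 0.15 in the ovary. The arrays of dKO XY and control XY did not overlap, and the difference of -0.34 ± 0.08 (limma adjusted p = 0.009) was far under 2-fold. *Sel1l2* had signals of 4.50 ± 0.12, 4.39 ± 0.07 and 4.38 ± 0.04, toward the bottom of the scale, and was not called (-0.11, adjusted p = 0.41). Of 5 measured Sel1 repeat genes limma called 0 in any of the 3 contrasts, with *Eef2k*, a kinase of translation elongation, at -0.55. The 18 genes of endoplasmic reticulum associated degradation likewise had 0 calls and a median difference of 0.02, with *Hsp90b1* at -0.09 and *Vcp* at 0.14. In lists this short a count of 0 is close to the shares called over all clusters (2.19%, 5.76% and 2.5%). At an adjusted p below 0.05 with no fold threshold, 1 Sel1 repeat gene was higher and 2 were lower in dKO XY than in the testis, and 0 degradation genes passed. At an unadjusted p below 0.05 there were 3 of 5 and 4 of 18, beside 22% of all clusters.

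**Figure D4:**
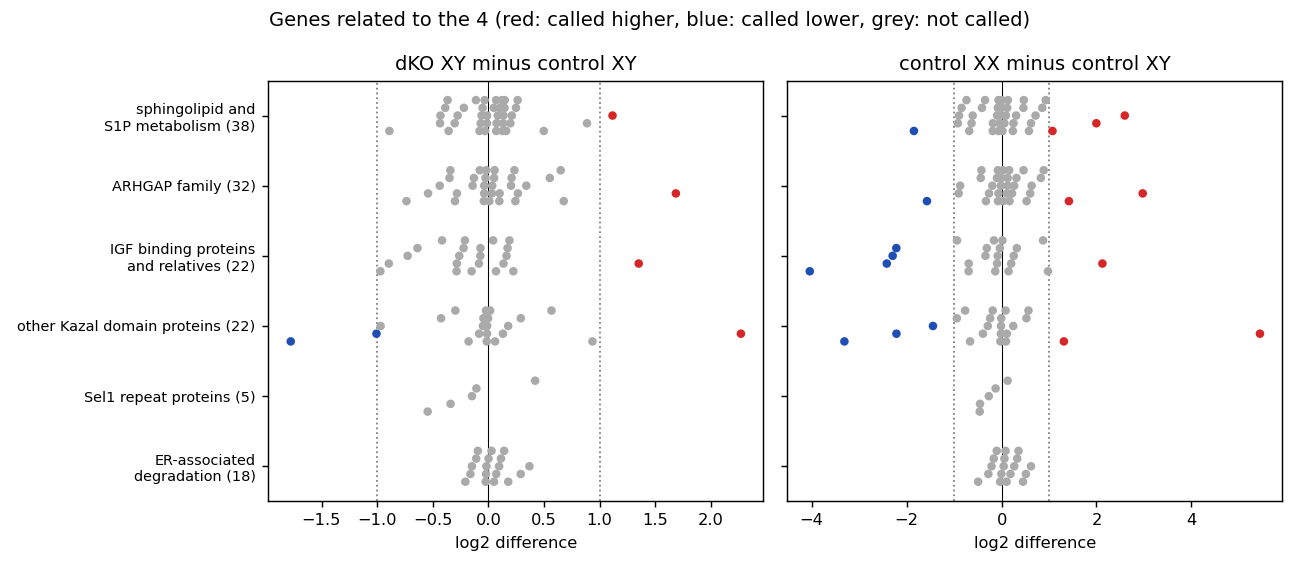
Log2 difference (horizontal axis) of each measured gene on 6 lists, with the number of genes in brackets; dotted lines mark a difference of 1 in either direction, and colours mark the limma calls. In dKO XY 4 genes were called higher and 2 lower, and the degradation and Sel1 repeat lists hold no call.

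The chromosomal neighbours of the 4 genes were taken as the 3 nearest measured genes on each side, 24 in all. They had 0 limma calls between dKO XY and control XY, beside 2.19% of all clusters, so that the count is near the background. An unadjusted p below 0.05 was found for 7, beside 22% of all clusters, and an adjusted one for 2. Beside *Kazald1* on chromosome 19 were *Lzts2* (-0.23), *Pdzd7* (0.02), *Sfxn3* (0.61), *Tlx1* (-0.02), *Lbx1* (0.13) and *Btrc* (0.15). *Sfxn3*, a mitochondrial serine carrier, had the largest difference of the 24 in the upward direction (limma adjusted p = 0.00078). Beside *Sel1l3* on chromosome 5 the values ran from -0.22 (*Slc34a2*) to 0.21 (*Rbpj*, the DNA-binding factor of Notch signalling), with *Zcchc4* (0.08), *Anapc4* (0.05), *Smim20* (-0.20) and *Tbc1d19* (0.13) between them. Around *Sgpp2* on chromosome 1 they ran from -0.17 (*Kcne4*) to 0.33 (*Farsb*, which overlaps *Sgpp2* in the gene table), with *Slc4a3* (0.15), *Epha4* (-0.08), *Pax3* (-0.01) and *Mogat1* (0.04).

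*Fdx1* was the only neighbour called between the controls. It lies after *Arhgap20* on chromosome 9 and encodes the ferredoxin that passes electrons to the mitochondrial enzymes of steroid synthesis. Its signal was 11.21 ± 0.33 in the testis, 10.62 ± 0.41 in dKO XY and 8.20 ± 0.10 in the ovary. The ovary minus the testis was -3.02 (limma adjusted p = 2.4e-09) and dKO XY minus the ovary was 2.42 (adjusted p = 1.1e-07), whereas dKO XY minus control XY was -0.59 (adjusted p = 0.044), under the threshold. *Arhgap20*, with 12.30 in the testis and 9.30 in the ovary, had nearly the same difference between the controls. dKO XY lay closer to the testis in *Fdx1* and closer to the ovary in *Arhgap20*. The other neighbours of *Arhgap20* were *Btg4* (-0.03), *Pou2af1* (0.07), *Colca2* (-0.08), *Rdx* (-0.07) and *Zc3h12c* (-0.05) between dKO XY and control XY. *Fdx1* was the 1 neighbour of 24 called lower in the ovary than in the testis, and 0 were called higher. Of all clusters 3.22% were called lower and 2.54% higher, so that this count too is near the background.

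**Figure D5:**
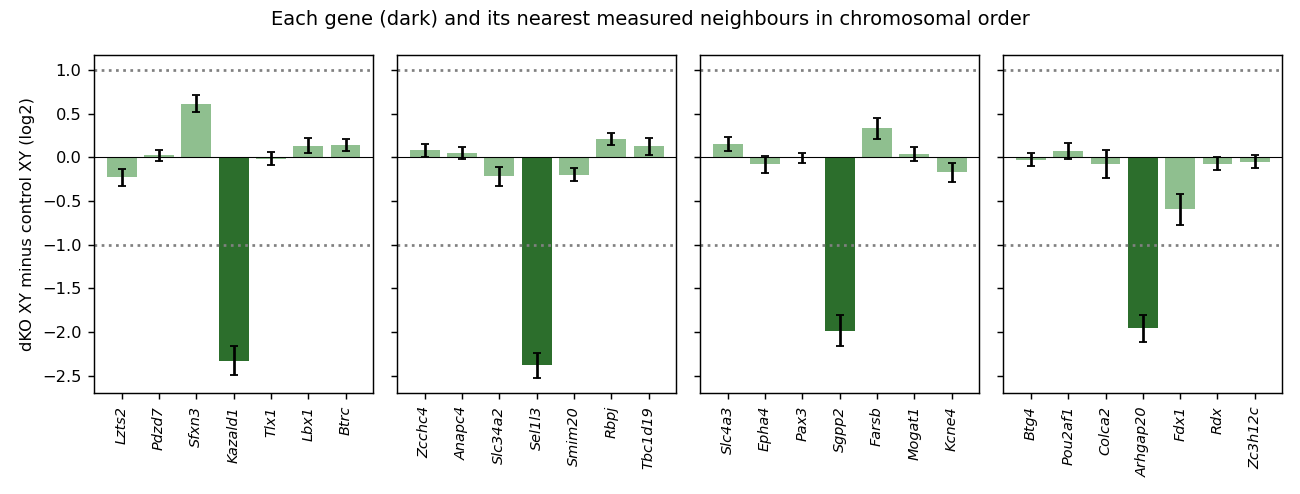
Difference between dKO XY and control XY (log2, bars, with SE) for each gene (dark green) and its 3 nearest measured neighbours on each side in chromosomal order. The 4 genes lie between -2.38 and -1.96, and their neighbours between -0.59 and 0.61.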

How the data were processed

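Signals of 15 arrays were used as deposited: log2 values per transcript cluster (1 transcribed region), RMA normalized by the authors, who obtained them with TAC software. The annotation's genome build is not given in the sources used here. Groups and the age came from the labels, although the data statement of the study lists these arrays under an earlier stage. Of 72688 entries, 6732 control probe sets were left out of tests. Symbols came from the platform annotation and were updated through RefSeq. A gene with several clusters, as for 427 genes, was represented by the one with the highest mean.

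Group means of all 65956 clusters were fitted with limma 3.58.1 (lmFit, eBayes, two-sided) in R 4.3.3, as checked on simulated data. Calls needed a Benjamini-Hochberg adjusted p below 0.05 and a difference of 1. The study's methods use the same thresholds, with a one-way ANOVA. It reports more genes higher than lower in dKO XY at the labelled age. Here 374 clusters were called higher and 1070 lower. These are counts of clusters, many of them without a gene symbol, and cannot be set against counts of genes. Among its lower genes the study names *Kazald1* and *Fshr*. The result of 1 gene list is not reported here. The 4 genes and all lists were chosen with earlier results of these data known. The rule for named genes took called list genes, the 2 others of each list with the highest mean, 3 paralogs, 3 neighbours on each side and 5 similar genes. Labels call the arrays replicates, and the study calls them independent gonads. Arrays count no molecules, so their number limits the precision.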

Additional observations from a re-analysis of the deposited data

Results flagged for a closer look

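A sample was singled out where the lowest or highest of 5 arrays stood apart by more than Dixon's 95% limit (0.71 of the group's range). This held for 18 of 225 groups of named genes, and chance alone gives about 1 in 20. None of the 4 genes was among them. On dKO XY replicate 3, *Stox2* was lowest at 9.16 log2 units (the other arrays 9.46 to 9.56), as were *Cers6* at 9.62 (10.03 to 10.15), *Igfbp3* at 10.69 (11.18 to 11.31), *Ccn1* at 9.32 (10.01 to 10.15) and *Fdx1* at 9.91 (10.72 to 10.92), and *Lbx1* was highest at 5.92 (5.48 to 5.60). The other dKO XY values were *Igf2* 13.58 and *Rdx* 12.70 on replicate 2, *Btrc* 9.26 and *Tbc1d19* 12.01 on replicate 1 and *Btg4* 4.06 on replicate 4. In control XX they were *Sfxn3* 10.12 on replicate 2, *Pdzd7* 4.89 and *Anapc4* 12.19 on replicate 1, and *Epha4* 6.28 and *Zc3h12c* 7.54 on replicate 4. In control XY they were *Pax3* 4.254 on replicate 2 (the other arrays 4.264) and *Mogat1* 4.583 on replicate 1 (4.625 to 4.626). The limit is relative to the group's range, so gaps as small as these, or that of *Btrc* (9.262 against 9.169 to 9.172), can pass it.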

How the results depend on the processing

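The differences and the distances covered of *Kazald1*, *Sel1l3*, *Sgpp2* and *Arhgap20* moved by less than 1 SD between arrays under a second quantile normalization, centred medians, array weights, a replicate block and the omission of any array. Without 1 array, dKO XY minus control XY was -2.43 to -2.21 for *Kazald1*, -2.49 to -2.28 for *Sel1l3*, -2.14 to -1.88 for *Sgpp2* and -2.06 to -1.83 for *Arhgap20*, and the small difference of *Kazald1* from control XX changed sign (-0.03 to 0.16). Of the related genes, 2 were called lower in dKO XY against control XY, which became 1 after quantile normalization or with centred medians and 1 to 4 without 1 array (1 on leaving out replicate 1 or 3 of dKO XY or of control XY, and 4 on leaving out replicate 2 of either). The deviations of same-numbered arrays of different groups correlated at r = -0.19 to 0.19. Differently numbered arrays were not compared, so whether arrays were paired or shared litters cannot be told from this. With a replicate block the counts were still 4 higher and 2 lower. With no fold threshold, 15 related genes were higher and 21 lower in dKO XY against control XY, 36 and 39 in the ovary against the testis, and 27 and 32 in dKO XY against the ovary. For the neighbours the same counts were 1 and 1, 7 and 5, and 2 and 5. These larger counts follow from dropping the threshold. The share of all clusters at this setting was not taken, so neither these counts nor those of single lists can be set against it. The moderated trend, the unmoderated contrast, the filter on low signals and the choice of cluster moved none of the counts over all related genes or neighbours by over 1.5 times. Signals within the range of the negative control probe sets, as for *Kazald1* and *Sgpp2* in dKO XY and the ovary and *Sel1l3* in the ovary, limit how far these groups could differ and how exact the distances covered are, and the stretched scale leaves all fold changes uncertain.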
